A study of Mus musculus with 8 samples.

Results

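The 8 sites described here are stretches of 20 bases of the mouse genome that resemble the guide-matched sequence at histone H3 but differ from it at 4 positions. They were taken as every site listed as an H3 off-target site among the 26 sequenced sites. The remaining sites were 9 targets at H3, 1 target at Carm1 and 8 off-target sites that resemble the Carm1 target. PCR products of genomic DNA from C57BL/6 embryos, collected 19.5 days after microinjection, were sequenced in 8 libraries. Of these, 4 carried the label H3R17/Carm1 wild type and 4 the label H3R17H/Carm1-/-, that is, histidine in place of arginine 17 of H3 together with loss of the arginine methyltransferase Carm1. The second group is called edited here. Whether each library came from its own embryo is not stated in the labels, and p-values therefore reflect only the spread between these libraries, which may be technical. The sources used here do not give the form of the editor, its dose or whether each embryo received both guides.

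As background, a cytosine base editor joins a Cas9 protein that does not make a double-strand break to a deaminase. The guide RNA pairs with one strand, the other strand is left single, and the deaminase turns cytosines within a short stretch of that strand into uracil, which is read as thymine. Cas9 tolerates some mismatches between guide and DNA, more easily at the end of the guide far from the adjacent motif (PAM) than near it, so sites that resemble the target are the usual place to look for unintended conversion. Conversion of such a site needs both binding and a cytosine inside the stretch that the deaminase reaches.

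The sequences are shown because the place of the mismatches decides which cytosines could be reached. All are on the guide-matched strand, 5′ to 3′, with position 1 at the first base; the capital in the target is the cytosine whose conversion changes the codon of arginine 17, and capitals in the off-target sites are bases that differ from the target.
H3 target site: cttgCgcggggccttgccgc
Off-target site 1: cttgcTTTAggccttgccgc
Off-target site 2: ctCgAgcggCgccttgccTc
Off-target site 3: cttgGgAgggCccttgccCc
Off-target site 4: cttgcCcAgggcctAgccCc
Off-target site 5: cGGgcCcggggcctCgccgc
Off-target site 6: cttgcTTggggccttAcGgc
Off-target site 7: cGAgcTGggggccttgccgc
Off-target site 8: ctCgGgcAgggccttgccCc
The sources used here do not give the coordinates and genes of these sites or the bases of the PAM next to them.

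The mismatches were not spread evenly. Position 6 differed at 5 sites, positions 3, 7 and 19 at 4 sites each, and positions 5 and 8 at 3 sites each, while positions 1, 4, 12, 13, 14, 17 and 20 matched the target at all 8. Sites 1 and 7 had no mismatch in positions 11 to 20. Sites 2, 5 and 8 had 1 there, and sites 3, 4 and 6 had 2. Site 1 carried its 4 mismatches side by side, as G6T, C7T, G8T and G9A (target base first, then position, then the base of the site).

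The cytosine at position 5 was kept at sites 1, 4, 5, 6 and 7. It was lost at site 2 by C5A and at sites 3 and 8 by C5G. Among positions 4 to 8, taken here as the editing window, sites 1, 6 and 7 kept only the cytosine at position 5, and sites 2 and 8 kept only that at position 7. Sites 4 and 5 held 3 window cytosines, at positions 5, 6 and 7, the middle one created by the mismatch G6C. Site 3, with C5G and C7A, had no window cytosine. The 8 sites held 66 cytosines, 11 of them in the window and 10 created by a mismatch.

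Depth, the number of reads with a base call, differed widely between sites. The median over the 20 positions ranged from 841592 to 1204590 reads across the 8 libraries at site 7, and from 174653 to 925133 at sites 1, 2, 3, 4, 6 and 8. Site 5 was far shallower, with medians of 6347, 7312, 22696 and 14526 reads in wild-type replicates 1 to 4 and 5764, 11404, 4774 and 5094 in edited replicates 1 to 4. Its mean depth was 12720 in wild-type and 6759 in edited libraries. Site 5 thus has the weakest counting precision of the 8.

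Base calls were also lost inside 2 of the sites. Relative to the mean depth of its site in the same library, depth at the window cytosines of site 4 was 0.262 to 0.281 at position 5, 0.195 to 0.205 at position 6 and 0.162 to 0.174 at position 7, over wild-type and edited libraries together, and 0.495 to 0.505 at position 8. Site 5 dropped to 0.256 to 0.304 at position 14. Smaller drops were at position 1 of site 4, to 0.724 to 0.758, and at 3 more positions of site 5. These were positions 13 (0.776 to 0.789), 18 (0.702 to 0.731) and 20 (0.730 to 0.763). At sites 1, 2, 3, 6, 7 and 8 the relative depth stayed between 0.914 and 1.03. These losses were present in all 4 wild-type and all 4 edited libraries. Limma with Benjamini-Hochberg adjustment was fitted to the relative depth of all 520 positions of the table. It called 0 of the 160 positions of these sites, against 5.77% of all positions tested. Its unadjusted p was under 0.05 at 1 of the 160, against 55 of all 520. No other tool was run on depth. The sources used here do not say how these calls were lost.

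The main question was whether the window cytosines of these sites were read as thymine more often in edited libraries. As the scale for comparison, thymine at position 5, averaged over the 9 H3 targets, was 38.1% ± 7.12 (SD, n = 4 libraries) in edited libraries. In wild-type libraries it was 0.0266% ± 0.00325 (n = 4). At the 7 off-target sites with a window cytosine, the share was on average 0.0226% ± 0.00205 (n = 4) with editing, and 0.0223% ± 0.00153 (n = 4) in wild type. In wild-type replicates 1 to 4 it was 0.0231%, 0.0223%, 0.0202% and 0.0236%, and in edited replicates 1 to 4 it was 0.0247%, 0.0205%, 0.0212% and 0.0240%. The groups overlapped throughout. The difference of 0.00032 percentage points was smaller than the SD of either group, and it ran from -0.00308 (lowest edited minus highest wild-type library) to 0.00459 (highest edited minus lowest wild-type). Its sign turned without wild-type replicate 3 (-0.00039), without edited replicate 1 (-0.00039) and without edited replicate 4 (-0.00013). The mean joins opposite site differences, -0.0165 percentage points at site 2 and 0.0135 at site 5. The other sites differed by -0.00133 to 0.00469.

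Site by site, the edited mean was above the wild-type mean at 5 sites and below it at 2. Each site was tested with limma on log2 odds, fitted to all 25 sites of the table with a target or window cytosine, and with an exact two-sided permutation test of the difference in percent. Limma called 1 of these 7 sites at an adjusted p under 0.05, against 44% of all 25 sites, which include the target sites. The permutation test, whose smallest possible p is 0.0286 here, called none after Benjamini-Hochberg adjustment over the 25 sites (lowest adjusted permutation p = 0.0649). An unadjusted permutation p under 0.05 needs groups that do not overlap. It was reached at 1 of these 7 sites, against 11 of all 25, which include the target sites. After adjustment the permutation test called 0% of all 25 sites, the converted targets included, so its adjusted value says nothing about a single site.

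Sites 1, 6 and 7, each with a single window cytosine preceded by G as at the target, gave the lowest edited means of the 7 sites. At site 1, C5T was 0.00689%, 0.00650%, 0.00962% and 0.00540% in wild-type replicates 1 to 4 and 0.00762%, 0.00599%, 0.00719% and 0.00791% in edited replicates 1 to 4. All edited values lay inside the wild-type range, and the difference of the means was 7.27e-05 percentage points, with a range of -0.00363 to 0.00251 (exact permutation p = 0.971). Site 1 matched the target at positions 10 to 20, so the long matched stretch near the PAM end came with no difference beyond the spread.

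Site 7 also matched the target at positions 8 to 20. Its C5T share was 0.0104%, 0.00767%, 0.00784% and 0.0117% in wild-type replicates and 0.0119%, 0.0129%, 0.00939% and 0.00980% in edited replicates. Edited replicates 1 and 2 lay above every wild-type library and edited replicates 3 and 4 within the wild-type range. The means were 0.0110% ± 0.00165 (n = 4) against 0.00942% ± 0.00199 (n = 4), and the difference of 0.00156 percentage points did not exceed the spread (exact permutation p = 0.286, limma adjusted p = 0.414). These shares rest on 439 changed reads among 4028426 after editing and 361 among 3862261 in wild type.

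Site 6, with mismatches at positions 16 and 18 as well as 6 and 7, had C5T of 0.00753% ± 0.000897 (n = 4) in edited libraries and 0.00721% ± 0.00118 (n = 4) in wild-type libraries (exact permutation p = 0.686). Edited replicates 1 to 4 gave 0.00796%, 0.00858%, 0.00695% and 0.00664%, and the wild-type libraries 0.00559 to 0.00841%. At sites 1, 6 and 7 the highest edited value exceeded the lowest wild-type value by at most 0.00518 percentage points. The same cytosine was at 38.1% in edited libraries as a mean over the 9 H3 targets.

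Site 4 had the highest window share of the 7 sites, in both groups. Averaged over positions 5, 6 and 7 it was 0.0696%, 0.0673%, 0.0633% and 0.0596% in wild-type replicates and 0.0893%, 0.0611%, 0.0625% and 0.0657% in edited replicates. Edited replicate 1 stood above all others, and the other 3 edited libraries lay within the wild-type range. The means of 0.0696% ± 0.0132 (n = 4) in edited libraries and 0.0649% ± 0.00441 (n = 4) in wild type did not differ beyond the spread (exact permutation p = 0.771, limma adjusted p = 0.753), and without edited replicate 1 the log2 difference changed sign, from 0.10 to -0.03. Change to adenine was more common still at the same 3 bases: C5A was 0.169% in edited libraries and 0.147% in wild type, C6A 0.154% and 0.128%, and C7A 0.223% and 0.246%. Adenine was thus read more often than thymine at each window cytosine of site 4 in both groups. These 3 positions are the ones where most base calls were missing; the part of that loss in the raised shares was not tested.

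Site 5 was the site limma called. It has the same window letters as site 4, GCCC at positions 4 to 7, and a share of 0.00956%, 0.00420%, 0.00420% and 0.00453% in wild-type replicates 1 to 4 against 0.0170%, 0.0161%, 0.0127% and 0.0306% in edited replicates 1 to 4. All 4 edited libraries were above all 4 wild-type libraries, with means of 0.0191% ± 0.00789 and 0.00562% ± 0.00263 (n = 4 each; exact permutation p = 0.0286, adjusted permutation p = 0.0649). The limma log2 difference was 1.62 (SE 0.35, adjusted p = 0.00443). The reads behind these shares were few: 2, 1, 3 and 2 changed base calls in the wild-type libraries and 3, 6, 2 and 5 in the edited ones, or 8 of 161210 against 16 of 86778. Base calls were summed over 3 cytosines, so a read can enter more than once. Wild-type replicate 1 and edited replicate 3 were the closest libraries of the groups. Their Wilson 95% intervals, which cover counting error only, ran from 0.00267 to 0.0355% and from 0.00354 to 0.0471%. The intervals of wild-type replicate 3 (0.00143 to 0.0124%) and edited replicate 4 (0.0130 to 0.0713%) did not overlap. Every other pair of a wild-type and an edited library overlapped. Wild-type replicates 1, 2 and 4 and edited replicate 3 held fewer than 3 changed base calls each.

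The changed reads of site 5 were not on one cytosine. C5T took 9 of the 16 changed base calls in edited libraries and 4 of the 8 in wild type, C6T 2 and 1, and C7T 5 and 3. No window cytosine had a changed read in all 4 edited libraries. At C5T the edited libraries gave 0%, 0.0401%, 0.0189% and 0.0535%, so edited replicate 1 lay below wild-type replicates 1 to 3, and at C7T edited replicates 2 and 3 were at 0%. None of the 3 passed limma over single cytosines (adjusted p of 0.627 for C5T, 0.627 for C6T and 0.666 for C7T). The edited mean of 0.0191% was below the wild-type means of site 2 (0.0452%) and site 4 (0.0649%). It was above those of sites 1, 6, 7 and 8 (0.00710%, 0.00721%, 0.00942% and 0.0165%). Wild-type shares of other sites are no matched error level for site 5. With all 10 cytosines of site 5 in place of the window, the limma call ended (adjusted p = 0.0624), and at a median depth of at least 5000 reads in every library the site drops out.

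Sites 2 and 8 lack the target cytosine and keep C7, and both had a lower mean in edited libraries. At site 2, C7T was 0.0443%, 0.0429%, 0.0317% and 0.0620% in wild-type replicates and 0.0265%, 0.0218%, 0.0338% and 0.0328% in edited replicates. Edited replicates 1 and 2 lay below all wild-type libraries, and edited replicates 3 and 4 just above wild-type replicate 3. The difference of -0.0165 percentage points, between means of 0.0287% ± 0.00563 and 0.0452% ± 0.0125 (n = 4 each), did not pass in the main tests (exact permutation p = 0.0857, limma log2 difference -0.63, SE 0.24, adjusted p = 0.0643). It did pass without wild-type replicate 3 (limma adjusted p = 0.0225) and with edgeR's quasi-likelihood test (adjusted p = 0.0455), always in the direction opposite to conversion. At site 8, C7T was 0.0152% ± 0.00191 (n = 4) in edited libraries and 0.0165% ± 0.00235 (n = 4) in wild-type libraries (exact permutation p = 0.457).

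Taking C5T alone, the change made at the target, the mean over the 5 sites that keep this cytosine was 0.0286% ± 0.00296 (n = 4) in edited libraries and 0.0225% ± 0.00299 (n = 4) in wild-type libraries. Edited replicates gave 0.0285%, 0.0282%, 0.0251% and 0.0324%, and wild-type replicates 0.0259%, 0.0241%, 0.0208% and 0.0193%, so edited replicate 3 fell below wild-type replicate 1. The edited mean was higher at each of the 5 sites. For comparison, it was higher at 41 of all 66 cytosines, with 9 of the 11 in the window and 32 of the 55 outside it. No test is given for the mean over the 5 sites. At sites 1, 6 and 7 the difference was at most 0.00156 percentage points. Without site 5 the means were 0.0287% and 0.0259%, and without sites 4 and 5 they were 0.00856% ± 0.000681 and 0.00791% ± 0.000627 (n = 4 each), a difference of 0.000649 percentage points.

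Cytosines outside the window were compared next, because they lie in the same amplicons but where the deaminase acts least. Their shares in wild type differed widely from base to base, so they are no matched error level for the window cytosines. The 55 cytosines outside the window averaged 0.0241% ± 0.000702 (n = 4) in edited libraries and 0.0225% ± 0.00111 (n = 4) in wild-type libraries. The 11 window cytosines averaged 0.0305% ± 0.00403 and 0.0270% ± 0.00166 (n = 4 each). The difference was thus 0.00161 percentage points outside the window and 0.0035 inside it, and the inner one depended on sites 4 and 5: without them the 5 remaining window cytosines averaged 0.0139% in edited libraries and 0.0171% in wild-type libraries, against 0.0280% and 0.0263% for the 41 others. All 4 edited libraries were then below all 4 wild-type libraries, narrowly (difference from -0.00691 to -2.08e-05 percentage points), although 3 of the 5 cytosines had a higher edited mean. The lower mean came from C7T of site 2, and without it the 4 remaining window cytosines averaged 0.0102% in edited libraries and 0.0101% in wild type. Cytosines created by a mismatch, which the target lacks, averaged 0.0224% in edited libraries and 0.0217% in wild type, and the 56 shared with the target 0.0257% and 0.0235%.

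Limma on log2 odds over all 210 cytosines of the table called 0 of the 66 at these sites, against 10% of all cytosines tested. Its unadjusted p was under 0.05 at 2 of the 66, both lower in edited libraries, against 28 of all 210. EdgeR's quasi-likelihood test with log depth as offset also called 0 of the 66 (2 unadjusted), against 22 of all 210. The 2 of the 66 with an unadjusted p under 0.05 in limma were C7T at site 2 and C1T at site 6. The latter was at 0.00564% ± 0.000322 in edited libraries and 0.00763% ± 0.00138 in wild type (n = 4 each, limma adjusted p = 0.255). At 0 of the 66 cytosines did the 4 edited libraries separate from the 4 wild-type libraries, against 12.9% of the 210 cytosines of the table, which include the target sites.

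The highest C-to-T shares of these sites were outside the window, in both groups, at C12T of site 1 and C17T of site 7. C12T at site 1 was 0.230%, 0.212%, 0.195% and 0.167% in wild-type replicates and 0.216%, 0.217%, 0.221% and 0.217% in edited replicates, so that every edited value lay inside the wild-type range. C17T at site 7 was 0.190%, 0.162%, 0.171% and 0.170% in wild-type and 0.215%, 0.200%, 0.157% and 0.219% in edited replicates. Edited replicates 1, 2 and 4 were above the wild-type range there and replicate 3 below it (limma log2 difference 0.18, SE 0.14, adjusted p = 0.666). The same positions were far lower at other sites: the cytosine at position 12, which all 8 sites share, was at 0.00414% in edited libraries and 0.00461% in wild-type libraries at site 2, and that at position 17 was at 0.0178% and 0.0167% at site 3.

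Cytosines were also grouped by the preceding base. The 27 cytosines that follow G averaged 0.0395% in edited libraries and 0.0375% in wild-type libraries, the 26 that follow C 0.0155% and 0.0141%, and the 4 that follow T 0.0123% and 0.0136%. Without C12T of site 1 and C17T of site 7, cytosines after G averaged 0.0261% and 0.0255%. In these 3 contexts the group means differed by at most 0.00201 percentage points. The 1 cytosine that follows A, C17T of site 6, was at 0.0354% ± 0.00877 in edited libraries and 0.0286% ± 0.00636 in wild type (n = 4 each), a difference of 0.0068 percentage points within its spread, and above the mean after G without those cytosines. The 8 cytosines at position 1 have no preceding base in the table. These are descriptions over cytosines of the same amplicons, which share their libraries and depth.

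Site 3, with no window cytosine, serves as a site where conversion by this editor would have no substrate in the window. Its 8 cytosines averaged 0.0149% ± 0.000442 (n = 4) in edited libraries and 0.0145% ± 0.000752 (n = 4) in wild-type libraries, and the highest of them, C11T, created by the mismatch G11C, was at 0.0485% and 0.0479%.

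Changes other than C-to-T were examined at all 160 positions, since base editors can also leave C-to-A and C-to-G, and conversion of the opposite strand would appear as G-to-A. Limma over all 1560 base changes of the table called 0 of the 480 at these sites, against 0.897% of all changes tested. Its unadjusted p was under 0.05 at 20 of the 480, against 108 of all 1560. EdgeR's quasi-likelihood test also called 0 of the 480 (19 unadjusted), against 23 of all 1560. Averaged over the 66 cytosines, C-to-T came to 0.0252% ± 0.00122 after editing and 0.0233% ± 0.00116 in wild type, C-to-A 0.0255% ± 0.00506 and 0.0236% ± 0.00123, and C-to-G 0.00534% ± 0.000980 and 0.00461% ± 0.000422 (n = 4 each). Averaged over the 55 guanines, G-to-A was 0.0189% ± 0.00110 in edited libraries and 0.0201% ± 0.00142 in wild type. The order of C-to-T and C-to-A was not the same in all libraries. In wild-type replicates 2, 3 and 4, C-to-A was the higher, at 0.0242%, 0.0243% and 0.0241% against 0.0229%, 0.0226% and 0.0226%. In wild-type replicate 1 it was the lower, at 0.0218% against 0.0250%. In edited replicates 1, 2 and 4, C-to-T was 0.0264%, 0.0244% and 0.0261% and C-to-A 0.0223%, 0.0243% and 0.0226%, so the higher edited mean of C-to-A came from edited replicate 3, at 0.0330% against 0.0239% for C-to-T. Without sites 4 and 5, C-to-A was below C-to-T in both groups, at 0.0130% against 0.0264% in edited libraries and 0.0131% against 0.0253% in wild type.

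Of the 10 base changes with the largest difference between group means, 7 were at site 5, 2 at site 4 and 1 at site 7. In all 10 the libraries of the groups overlapped. The overlap describes these 10 only, as no share over all base changes is given. The first, T14G of site 5, was at 0.534% ± 0.0921 in edited libraries and 0.636% ± 0.184 in wild type (n = 4 each), on the position of that site where most base calls were missing. The second, C12A of site 5, was at 0.0639% ± 0.116 against 0.00179% ± 0.00359, because edited replicate 3 was at 0.238% and the other 3 edited libraries at 0 to 0.0181%. The others at site 5 were G11A, T14C, C20G, C1T and G19A, with 2 to 22 changed reads in a group where any were seen. At site 4 they were C6A and C7A, and at site 7 C17T.

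Unconverted reads of the target amplicons assigned to these sites would carry the target's base at the 4 mismatched positions at once. The lowest of the 4 shares at a site limits how many reads can do so. It was at most 0.00763% in any library, at site 8 in edited replicate 4, and 0% at site 5 in all 8 libraries, where it rests on fewer reads. Target reads converted at position 5 would carry thymine there, a mismatched position at sites 2, 3 and 8. At these sites position 5 never held the lowest share. Single mismatched positions were higher, up to 0.102% for A5C at site 2 in edited replicate 3, with 0.0600 to 0.0768% in wild type.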

How the data were processed

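PCR products of genomic DNA were sequenced at 26 sites in 8 libraries, 4 per group, grouped by their titles. Per the submitters' processing notes, Bowtie 0.12.2 and the builds mm8 and mm10 were used, with no role stated, and filters and read assignment unstated. For each site, position and library the deposited table holds a read count (base calls) and 4 percent values, the shares of A, C, G and T as the authors computed them. Each percent times its count lay within 0.00605 of a whole number, so changed reads were recovered as whole counts. Depth ran from 1228 to 1226066 base calls. Depths over the 8 sites differed between libraries of a group (chi-square of at least 78451 per degree of freedom), so none was taken as a copy of another's counts. Base calls were summed over positions, so a read enters many times. The check cannot tell a second library of the same DNA from a separate embryo.

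Library names were matched to titles by initials and number. Sequences were read from position 1 to 20 and compared with H3 target site 6. The value of a site was the mean percent of T over cytosines at positions 4 to 8 (position 5 at H3 targets, 6 and 7 at Carm1). Limma 3.58.1 (R 4.3.3) was fitted to log2 odds with a pseudocount of 0.5 over the whole table, with counts summed over the window for sites, and called features at a Benjamini-Hochberg adjusted p under 0.05. EdgeR 4.0.16 (quasi-likelihood, log depth as offset), pseudocount, window, depth minimum (100 reads, which removed no site), features fitted, each library left out and a replicate block were the alternatives. Exact permutation tests used Python 3.11.15 and numpy 2.4.6, and were two-sided. Each of the 8 sites was named, and the 10 base changes with the largest difference. The sites, lists and tests were chosen with earlier results of these data known. Wilson 95% intervals cover counting error only, as PCR reads without molecular identifiers are not independent molecules.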

Additional observations from a re-analysis of the deposited data

Results flagged for a closer look

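A gap test for 1 library apart from the other 3 was run in 36 groups of 4. It marked 2 of 16 groups of window shares, where chance marks about 1 in 20. It marked 4 of 20 groups of the base changes with the largest difference between groups, to which that rate does not apply, since 1 high library can put a change on that list. All 6 lay at the shallow site 5 and at site 4, whose window has few base calls relative to the rest of that site. Of the 10 base changes on that list, 7 were at site 5 and 2 at site 4. The place of the 4 marked groups from the list was therefore largely set by it. The window of site 4 still held 244851 to 419944 base calls per library, summed over its 3 cytosines. Window C-to-T at site 4 was 0.0893% in edited replicate 1, against 0.0611 to 0.0657% in the other edited libraries. At site 5 it was 0.00956% in wild-type replicate 1, against 0.00420 to 0.00453%. C12A at site 5 was 0.238% in edited replicate 3, against 0 to 0.0181%, and 0.00717% (1 changed read) in wild-type replicate 4, against 0% in the other 3. G19A at site 5 was 0.0960% in wild-type replicate 1, against 0.00689 to 0.0137%. C7A at site 4 was 0.308% in edited replicate 3, against 0.192 to 0.196% in the other edited libraries and 0.188 to 0.309% in wild type.

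Edited replicate 3 also stood highest in mean C-to-A over the 66 cytosines, at 0.0330% against 0.0218 to 0.0243% in the other 7 libraries. It was at 0.0343% against 0.0255 to 0.0283% without site 5, and at 0.0143% against 0.0123 to 0.0135% without sites 4 and 5. Its relative depth also stood apart from the other 7 libraries at positions of several sites. It was lower at position 19 of site 3 (0.914 against 0.925 to 0.927). At site 4 it was lower at position 1 (0.724 against 0.751 to 0.758) and position 4 (0.905 against 0.943 to 0.949). At position 10 of site 7 it was higher, at 1.028 against 1.022 to 1.024. The cause was not tested.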

How the results depend on the processing

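The counts of 0 called cytosines, 0 called base changes and 0 positions called by depth stayed at 0 under every alternative run for them. The count of 1 called site stayed at 1 with the replicate block and with a pseudocount of 5 reads, and was 1 to 2 with each library left out (2 without wild-type replicate 3). It became 2 with edgeR, 2 with off-target sites fitted alone and 2 with positions 3 to 9, each time by adding the lower value of site 2, and 0 with all cytosines and 0 at a depth minimum of 5000 reads, which removes site 5. The mean difference over sites, 0.00032 percentage points, became -0.00187 at that minimum, since site 5 was left out. It was -0.00039 to 0.00102 with each library left out, -0.00092 with reads pooled over sites, 0.00127 with positions 3 to 9 and 0.00197 with all cytosines, each a move smaller than the SD between edited libraries. Log2 differences with no call that changed sign were those of site 1 (-0.0888 to 0.183 with each library left out, -0.0232 with a pseudocount of 5), site 4 (-0.0265 to 0.157 with each library left out, -0.0353 with all cytosines) and site 6 (-0.0449 to 0.148 with each library left out). Site 5 ranged from 0.97 to 1.90, with adjusted p of 1.73e-08 to 0.0624, called in 14 of 15 fits. The groups share replicate numbers, but same-numbered libraries did not deviate together over 130 off-target cytosines (correlations of -0.325, -0.0703, -0.0744 and -0.0431), so the numbers were not taken as pairs; with them as a replicate block the counts were 1 site (site 5, adjusted p = 0.0176), 0 cytosines, 0 base changes and 0 positions, as without it.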
